A study of Mus musculus with 6 samples.

Results

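Adherens junctions are the belts that hold neighbouring epithelial cells together, and 10 of their genes were followed here in mouse keratinocytes that by their labels lacked the transcription factor Ovol1, or both Ovol1 and its relative Ovol2. The genes encode the epithelial cadherins Cdh1 and Cdh3, the mesenchymal cadherins Cdh2 and Cdh11, the catenins Ctnna1, Ctnnb1 and Ctnnd1, the nectins Nectin1 and Nectin4, and the nectin partner Afdn. They were chosen by symbol, with earlier results of these data known. All 10 were among the 19938 named genes that could be tested, each read by 1 probe set. Values are log2(intensity + 16), called the level below, and a difference between groups is a difference of mean levels.

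The arrays held RNA from keratinocytes, the cells that build the epidermis, taken from the skin of C57BL/6 embryos at E18.5 and cultured for 2 to 5 days without calcium, the signal under which keratinocytes assemble junctions and differentiate. There were 3 groups of 2 arrays, with 2 mice per array. The Ovol1/2 DKO arrays came from Ovol1-/- mice that also carried Ovol2flox/- and K14-Cre, so that Ovol2 loss depends on a Cre driven in keratin 14-expressing cells. The Ovol1 KO arrays are labelled Ovol1-/-. The Control arrays came from mice that were either Ovol2flox/+ with Ovol1+/-, or Ovol2flox/+ with K14-Cre. By these genotypes a control lacks 1 copy of Ovol1, or of Ovol2 where the Cre acts. The labels do not say which array held which. The labels call all 6 samples female and the arrays of a group biological replicates. Precision is limited by having 2 arrays in each group.

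Cadherins are transmembrane proteins that bind like cadherins on the next cell through calcium. Inside the cell their tails hold p120 catenin (Ctnnd1) and beta-catenin (Ctnnb1), which in turn holds alpha-catenin (Ctnna1), the link to actin. Nectins are immunoglobulin-like adhesion molecules that form contacts without calcium and bind actin through afadin (Afdn). A change of cadherin from Cdh1 to Cdh2 is a textbook feature of epithelial to mesenchymal transition, and Zeb1 is a known repressor of Cdh1.

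The arrays were first set against their labels. Ovol1 read 5.96 and 6.22 in Ovol1/2 DKO, 10.75 and 9.80 under the Ovol1 KO label and 9.64 and 9.95 in Control. The same Ovol1-/- genotype is given for Ovol1/2 DKO and Ovol1 KO, but the signal was low in Ovol1/2 DKO alone, so the Ovol1 KO label was not borne out and every direction drawn from these arrays below carries that doubt. Ovol2 read 7.63 and 7.50 in Ovol1/2 DKO, 7.88 and 8.38 under the Ovol1 KO label and 8.37 and 6.97 in Control, so its loss was not seen, though a probe set outside the deleted part would check nothing. Xist, which coats the inactive X chromosome in female cells, read 4.54 in replicate 1 labelled Ovol1 KO and 4.43 in Control replicate 1, against at least 10.99 elsewhere, and the Y-linked Eif2s3y read 13.80 in the first of these and at most 5.14 elsewhere. Results are therefore also given without these 2 arrays, which leaves replicates in Ovol1/2 DKO alone. Of 12 keratinocyte markers none was near background on all arrays, and the basal keratins Krt5 and Krt14 read at least 13.2 on each array. The markers averaged 11.24 and 11.40 in Ovol1/2 DKO, 11.17 and 11.14 under the Ovol1 KO label and 11.25 and 11.16 in Control. Levels up to 6.20 are called near background, since no array had a higher median over its unnamed probe sets.

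Upstream sequence was available for a few of these genes, and it is shown for the 2 that fell and are in the RefSeq promoter table of GRCm38.p6. The table also held Ctnnb1 and Ctnnd1, while Cdh1, Cdh3, Cdh2, Cdh11, Ctnna1 and Nectin1 have no entry there. For Nectin4 the 250 bases before the start are printed (chr1:171369923-171370172, plus strand). For Afdn the 100 bases before the gene's first annotated start are printed (chr17:13760291-13760390, plus strand). Capitals mark matches, on either strand, to the E-box CANNTG or to CACCT, the core bound by Zeb factors. The sequences run 5′ to 3′.
Nectin4: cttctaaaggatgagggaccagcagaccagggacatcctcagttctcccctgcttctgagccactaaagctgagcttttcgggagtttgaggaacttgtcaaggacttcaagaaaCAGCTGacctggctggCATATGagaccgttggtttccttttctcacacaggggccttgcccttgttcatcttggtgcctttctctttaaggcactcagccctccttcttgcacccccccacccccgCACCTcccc
Afdn: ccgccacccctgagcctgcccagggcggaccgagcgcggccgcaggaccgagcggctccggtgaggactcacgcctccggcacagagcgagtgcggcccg

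The Nectin4 window held 2 E-boxes, CAGCTG and CATATG, and 1 CACCT. Over the 32851 promoters of the table, 66.2% of windows of that length hold an E-box and 46.0% hold CACCT, so neither match sets this window apart. The longer CACCTG, which contains both CACCT and an E-box, was not among its letters (17.2% of windows), and neither was CCGTTA, the core reported for Ovol proteins (2.18%). The Afdn window had no match to any of these motifs. For comparison, the first 100 bases of each window of the table were used, which end short of its listed start. Of these, 36.2% hold an E-box, 22.1% CACCT, 7.31% CACCTG and 0.871% CCGTTA.

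The first comparison, Ovol1/2 DKO against Control, asks what differs when by the labels both factors are lost. Ovol1 itself differed by -3.70 (SE 0.34, limma adjusted p = 0.00756) there, while Ovol2 differed by -0.10 (SE 0.45) and did not pass. The loss of Ovol2 therefore rests on the labels. Nectin4, Cdh1 and Afdn fell, and no member rose. Nectin4 fell by 3.66 on the log2 scale, Cdh1 fell by 1.57 and Afdn fell by 1.499. The other 7 members did not pass. They included Cdh2, whose mean was 1.68 higher in Ovol1/2 DKO with a wide spread, and the catenins Ctnna1 and Ctnnb1, whose means differed by -0.19 and 0.06. Across all genes, 2.02% passed at an adjusted p under 0.05 in limma, 1.4% lower and 0.622% higher. The members were picked with earlier results known, so their count is a description.

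**Figure D1:**
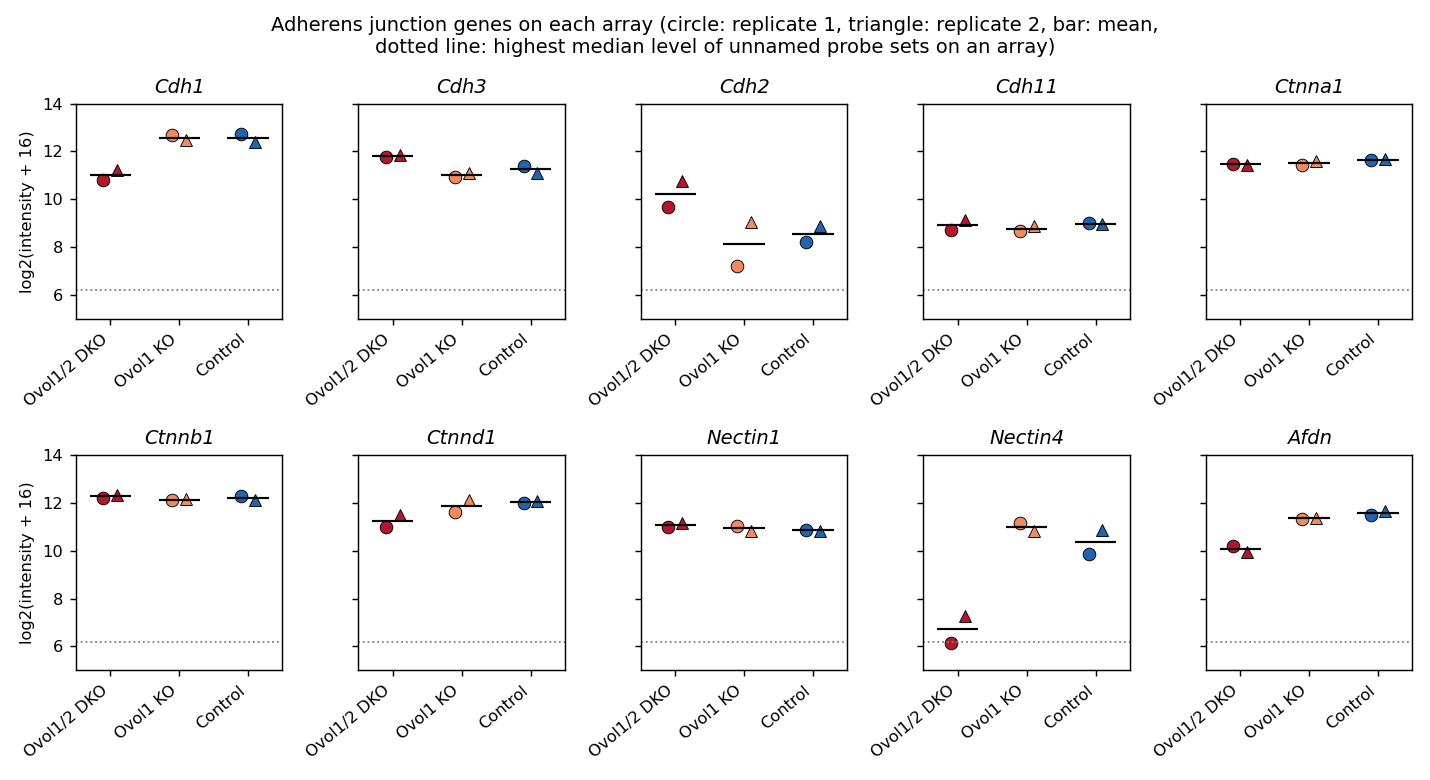
Level, log2(intensity + 16), of each of the 10 genes on each array, with the groups Ovol1/2 DKO, Ovol1 KO (as labelled) and Control from left to right; circles are replicate 1, triangles replicate 2, bars the group mean and the dotted line the level called near background, 6.20. The Ovol1/2 DKO arrays lie below all others for Cdh1, Ctnnd1, Nectin4 and Afdn and above all others for Cdh3 and Cdh2.

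Cdh1, the E-cadherin that carries most epithelial adhesion, read 10.81 and 11.22 in Ovol1/2 DKO, 12.67 and 12.50 under the Ovol1 KO label and 12.74 and 12.42 in Control. Both Ovol1/2 DKO arrays lay below all 4 others, and both were more than 4 log2 units above the level called near background. The difference from Control was -1.57 (SE 0.24, 95% interval -2.13 to -1.003, n = 2 per group, limma adjusted p = 0.0293), a level 2.96-fold lower. In a bulk sample, fewer cells with Cdh1 and less Cdh1 RNA per cell cannot be told apart. The call ended when any 1 of the 4 arrays compared was left out alone. Leaving out Ovol1/2 DKO replicate 1 gave a limma adjusted p of 0.181, leaving out Ovol1/2 DKO replicate 2 gave 0.111, leaving out Control replicate 1 gave 0.0830 and leaving out Control replicate 2 gave 0.0864. The limma adjusted p was 0.0558 with an offset of 64. Without the 2 arrays that lack Xist signal the difference was -1.41.

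Cdh3, the P-cadherin of basal keratinocytes and hair follicles, lay on the other side. It read 11.75 and 11.83 in Ovol1/2 DKO, 10.95 and 11.11 under the Ovol1 KO label and 11.40 and 11.11 in Control. The Ovol1/2 DKO arrays were the highest 2 of the 6, but the difference from Control of 0.54 (SE 0.21, 95% interval 0.05 to 1.03) did not pass (limma adjusted p = 0.408). The 95% intervals of the epithelial cadherins, which are not adjusted for the number of genes, lay on opposite sides of 0.

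Among the mesenchymal cadherins, Cdh2, the N-cadherin of neural and mesenchymal cells, read 9.69 and 10.77 in Ovol1/2 DKO, 7.23 and 9.06 under the Ovol1 KO label and 8.22 and 8.89 in Control. The 2 Ovol1/2 DKO arrays were the highest of the 6, and replicate 2 was above replicate 1 in every group. The difference from Control was 1.68, with the largest SE of the 10 genes (0.64, 95% interval 0.17 to 3.20), and it did not pass (limma adjusted p = 0.394). It ranged between 1.14 and 2.22 without 1 array, and with the replicate number as a block the limma adjusted p was 0.0493. Cdh11, the OB-cadherin of osteoblasts and mesenchyme, read 8.74 and 9.13 in Ovol1/2 DKO, 8.67 and 8.88 under the Ovol1 KO label and 8.999 and 8.96 in Control. Its Ovol1/2 DKO and Control arrays overlapped, with a difference of -0.05 (SE 0.22, 95% interval -0.57 to 0.48, limma adjusted p = 0.99999).

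Markers of other skin cells were read on the same arrays, since fibroblasts make Cdh2 and Cdh11. The mean level of 11 fibroblast markers was 6.94 and 7.57 in Ovol1/2 DKO, 6.62 and 7.33 under the Ovol1 KO label and 6.53 and 7.26 in Control, again with replicate 2 of each group above replicate 1. Among them Thy1, a surface glycoprotein of fibroblasts, rose in Ovol1/2 DKO (1.67, SE 0.22, limma adjusted p = 0.0187), though not when replicate 2 of Control or 1 Ovol1/2 DKO array was omitted (0.0962 to 0.141). None fell, and Lum was near background on all arrays. The collagen Col1a1 differed by 0.42 (SE 0.37) and the proteoglycan Dcn by -0.003 (SE 0.48), neither passing. The matrix protein Postn read 6.62 and 8.65 in Ovol1/2 DKO, against 5.18 and 5.65 in Control, both near background, and it did not pass (2.22, SE 0.67, limma adjusted p = 0.236; 0.0434 with the replicate number as a block). Without 1 array its difference was between 1.2004 and 3.23. The mean of 8 melanocyte markers was 6.72 and 6.29 in Ovol1/2 DKO, 7.11 and 6.46 under the Ovol1 KO label and 7.18 and 7.27 in Control, with none passing and Tyr near background throughout. The mean of 7 endothelial markers stayed between 6.29 and 6.64 over the 6 arrays (Tek and Emcn near background throughout), that of 7 leukocyte markers between 6.91 and 7.35 (Cd207 and Cd74) and that of 7 skeletal muscle markers between 6.76 and 7.26 (Myh3 and Des), none with a passing gene in this comparison. Of the 7 leukocyte markers Cd68 read highest, between 10.15 and 12.12. The 5 Schwann or Merkel cell markers averaged 8.15 and 8.32 in Ovol1/2 DKO, 8.64 and 9.23 under the Ovol1 KO label and 8.78 and 9.02 in Control. Against Control, Krt18 differed by -1.53 (SE 0.32, limma adjusted p = 0.0813), S100b by 0.21, Atoh1 by -0.13 and Krt20 by -0.09, none passing. Krt20 was near background throughout, and Krt8, a keratin that simple epithelia also make, was the passing marker of that list (-1.79, SE 0.28, limma adjusted p = 0.0316). It did not pass with replicate 2 of Control or 1 Ovol1/2 DKO array omitted (0.116 to 0.184). Of the keratinocyte markers the desmosomal cadherin Dsg3 fell (-1.25, SE 0.21, limma adjusted p = 0.0402) and 11 did not pass. The Dsg3 call ended whichever of the 6 arrays was omitted (0.0523 to 0.289). The part of such cells in the cadherin values was not tested.

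Ctnnb1, beta-catenin, which also carries Wnt signals to the nucleus, read 12.23 and 12.31 in Ovol1/2 DKO, 12.12 and 12.15 under the Ovol1 KO label and 12.28 and 12.14 in Control. Ovol1/2 DKO and Control overlapped, and the difference was 0.06 (SE 0.19, 95% interval -0.39 to 0.51, limma adjusted p = 0.99999). Ctnna1, alpha-catenin, read 11.49 and 11.42 in Ovol1/2 DKO, 11.41 and 11.59 under the Ovol1 KO label and 11.63 and 11.68 in Control. Both Ovol1/2 DKO arrays were below both Control arrays, by a difference of -0.19 (SE 0.19, 95% interval -0.65 to 0.26) that did not pass (limma adjusted p = 0.984).

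Ctnnd1, the p120 catenin that keeps cadherins at the cell surface, had the largest difference of the 3 catenins. It read 10.998 and 11.51 in Ovol1/2 DKO, 11.64 and 12.11 under the Ovol1 KO label and 11.99 and 12.08 in Control. The Ovol1/2 DKO arrays were the lowest 2 of the 6, with a difference from Control of -0.78 (SE 0.27, 95% interval -1.42 to -0.15) that did not pass (limma adjusted p = 0.313). The difference was -0.53 without Ovol1/2 DKO replicate 1 and -1.04 without Ovol1/2 DKO replicate 2.

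Of the nectins, Nectin4, which in humans is mutated in a syndrome of skin, hair and digit defects, read 6.16 and 7.26 in Ovol1/2 DKO, 11.17 and 10.81 under the Ovol1 KO label and 9.88 and 10.86 in Control. It had the largest difference of the 10 members, and Ovol1/2 DKO replicate 1 lay near background. The difference from Control was -3.66 (SE 0.45, 95% interval -4.75 to -2.58, limma adjusted p = 0.0166), a level 12.7-fold lower on the scale with 16 added, which understates the change of dim genes. The limma adjusted p was 0.0610 without Ovol1/2 DKO replicate 1 and 0.0558 with an offset of 64. Without the 2 arrays that lack Xist signal the difference was -4.15.

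Nectin1, the nectin that is also an entry receptor for herpes simplex virus, read 11.01 and 11.16 in Ovol1/2 DKO, 11.04 and 10.83 under the Ovol1 KO label and 10.87 and 10.84 in Control. Both Ovol1/2 DKO arrays were above both Control arrays, by a difference of 0.23 (SE 0.20, 95% interval -0.24 to 0.70) that did not pass (limma adjusted p = 0.952). The 95% intervals of Nectin4 and Nectin1 did not overlap. Afdn, the scaffold that ties nectins to actin, read 10.22 and 9.93 in Ovol1/2 DKO, 11.35 and 11.39 under the Ovol1 KO label and 11.49 and 11.66 in Control. Both Ovol1/2 DKO arrays lay at least 1 log2 unit below the others. The difference from Control was -1.499 (SE 0.20, 95% interval -1.99 to -1.01, limma adjusted p = 0.0215), a level 2.83-fold lower. Leaving out Ovol1/2 DKO replicate 1 gave a limma adjusted p of 0.0904, leaving out Ovol1/2 DKO replicate 2 gave 0.184 and leaving out Control replicate 2 gave 0.124. Without the 2 arrays that lack Xist signal the difference was -1.58.

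**Figure D2:**
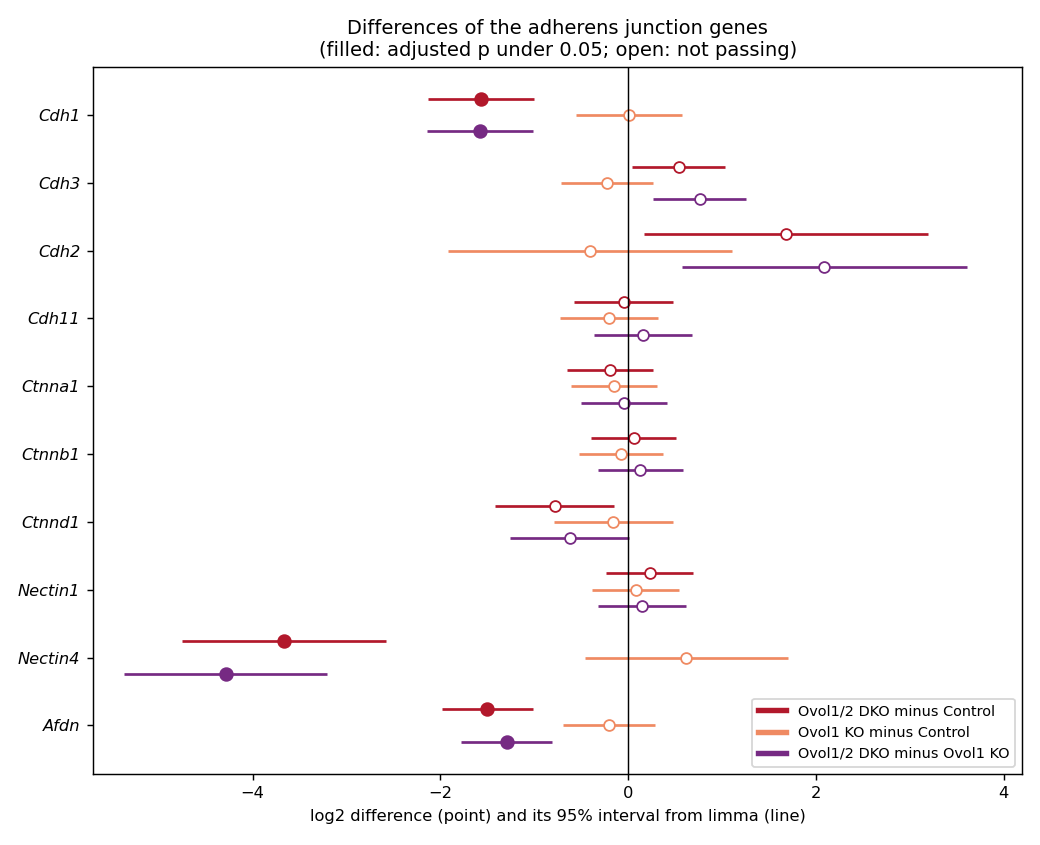
Log2 difference of each gene (points) with its 95% interval from limma (lines) for Ovol1/2 DKO minus Control, Ovol1 KO (as labelled) minus Control, and Ovol1/2 DKO minus Ovol1 KO; filled points have an adjusted p under 0.05. Cdh1, Nectin4 and Afdn are filled in both comparisons that hold Ovol1/2 DKO, and no point is filled for Ovol1 KO minus Control.

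In all, both Ovol1/2 DKO arrays lay below both Control arrays for 5 members (Cdh1, Ctnna1, Ctnnd1, Nectin4 and Afdn) and above them for 3 (Cdh3, Cdh2 and Nectin1). Among all genes 39.2% did not overlap between these groups, 18.1% below and 21.1% above. The median difference of the 10 members was -0.12, against 0.03 over all genes. The calls also depended on the features in the fit. Using all 35556 probe sets changes both the number of tests and the estimate of the spread. None of the 3 passed there (limma adjusted p = 0.0945 for Cdh1, 0.0762 for Nectin4 and 0.0713 for Afdn).

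Other adhesion genes were read in lists. Of 18 other cadherins Cdh10, a type II cadherin of the nervous system, rose by 2.22 (SE 0.28, limma adjusted p = 0.0181), none fell and 17 did not pass, with a list median of -0.005. Cdh10 read 7.76 and 8.22 in Ovol1/2 DKO, 5.73 and 6.16 under the Ovol1 KO label and 5.53 and 6.01 in Control, near background in both of those groups. Cdh13, the membrane-anchored cadherin without a tail, was 1.66 higher (SE 0.48) and did not pass (limma adjusted p = 0.216). That difference was 2.31 when replicate 1 of Ovol1/2 DKO was omitted and 1.02 when replicate 2 was. It was chosen after its values were seen.

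Of 8 other catenins and armadillo partners Ctnnal1, a relative of alpha-catenin, rose by 1.66 (SE 0.29, limma adjusted p = 0.0433), none fell and 7 did not pass, with a median of 0.12. Ctnnal1 read 11.08 and 10.64 in Ovol1/2 DKO, 8.42 and 8.45 under the Ovol1 KO label and 9.54 and 8.86 in Control, so its Ovol1/2 DKO arrays were the highest. Jup, plakoglobin, which is shared by adherens junctions and desmosomes, differed by -0.46 (SE 0.20) and did not pass (limma adjusted p = 0.509). It was chosen after its values were seen.

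Among 24 actin linkers and junction adaptors, 3 were lower by the test, 0 were higher and 21 did not pass, at a median of 0.09. Lmo7, a LIM-domain protein that binds afadin, read 7.90 and 7.95 in Ovol1/2 DKO, 11.23 and 10.78 under the Ovol1 KO label and 11.17 and 11.06 in Control. It fell by 3.19 (SE 0.22, limma adjusted p = 0.00393), which is 9.11-fold. Camsap3, which anchors microtubule minus ends at adherens junctions, read 7.10 and 7.28 in Ovol1/2 DKO, 10.79 and 9.56 under the Ovol1 KO label and 9.99 and 9.62 in Control, and fell by 2.61 (SE 0.40, limma adjusted p = 0.0301). Epb41l5, a FERM-domain protein of the cell cortex, fell by 1.71 (SE 0.21, limma adjusted p = 0.0159), with 8.33 and 8.23 in Ovol1/2 DKO, against 10.13 and 9.86 in Control. Vcl, Actn1 and Actn4, common actin linkers chosen after their values were seen, differed by 0.25 (SE 0.20), 0.08 (SE 0.19) and -0.06 (SE 0.19) without passing.

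**Figure D3:**
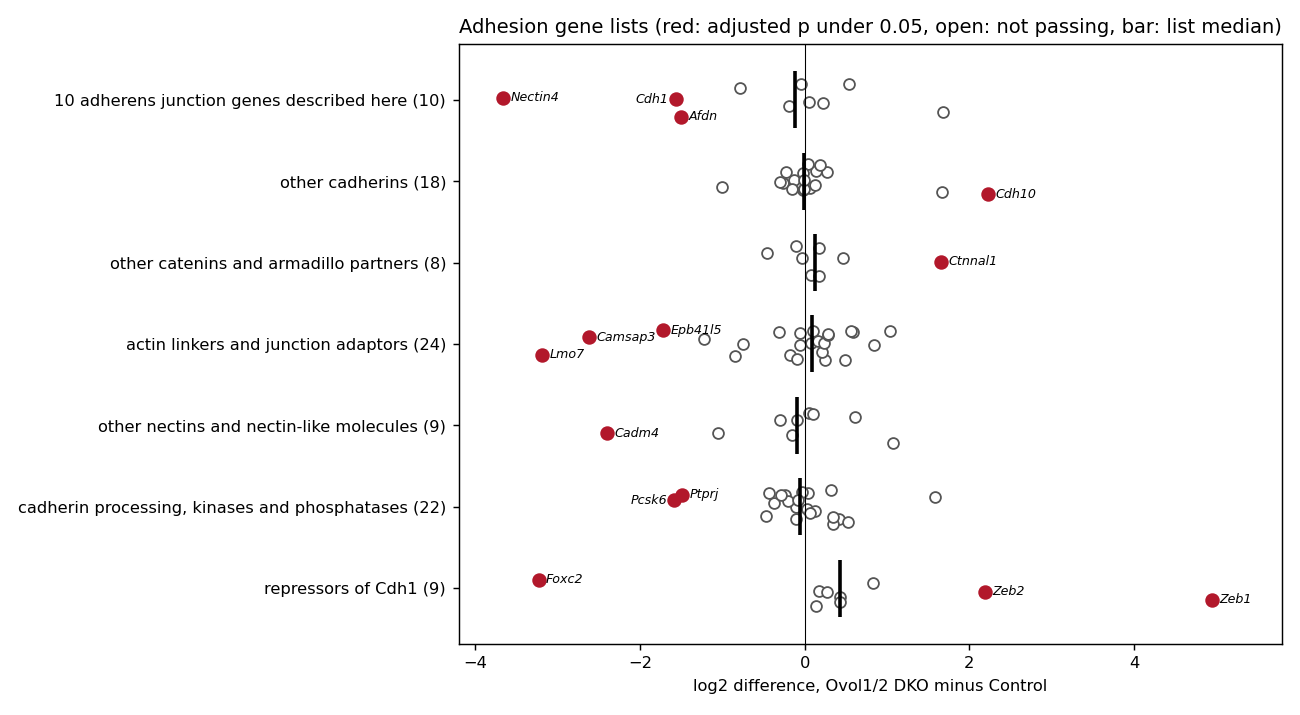
Log2 difference, Ovol1/2 DKO minus Control, of every measured gene of each adhesion list (points, with the number of genes in brackets; vertical jitter has no meaning), the list median (bar) and, in red with names, the genes with an adjusted p under 0.05. The lists of other adhesion genes hold 1 to 3 such genes each, and their medians lie between -0.09 and 0.42.

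Of 9 other nectins and nectin-like molecules Cadm4 fell by 2.40 (SE 0.27, limma adjusted p = 0.0135), to 6.22 and 6.36 in Ovol1/2 DKO, against 8.93 and 9.21 under the Ovol1 KO label and 8.35 and 9.03 in Control. None rose and 8 did not pass, at a median of -0.09. Nectin2 and Nectin3, chosen after their values were seen, lay on both sides of 0. Nectin2 differed by -1.06 (SE 0.21, limma adjusted p = 0.0659) and Nectin3 by 1.08 (SE 0.39, limma adjusted p = 0.359), neither passing.

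Of 22 genes of cadherin processing, kinases and phosphatases, 2 were lower by the test, 0 were higher and 20 did not pass, at a median of -0.06. Pcsk6, a protease that matures secreted precursors, fell by 1.58 (SE 0.24, limma adjusted p = 0.0293), and Ptprj, a receptor phosphatase found at cell contacts, fell by 1.48 (SE 0.25, limma adjusted p = 0.0386).

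Of 9 genes known as repressors of Cdh1 or as factors of mesenchymal transition, 2 rose, 1 fell and 6 did not pass, at a median of 0.42. Zeb1 read 11.06 and 11.03 in Ovol1/2 DKO, 5.88 and 6.29 under the Ovol1 KO label and 6.06 and 6.13 in Control (difference from Control 4.95, SE 0.21, limma adjusted p = 0.00257). Zeb2, its relative, rose by 2.19 (SE 0.28, limma adjusted p = 0.0183), with 7.94 and 8.36 in Ovol1/2 DKO, against 5.70 and 6.23 in Control. Foxc2, a forkhead factor tied to mesenchymal transition, fell by 3.23 (SE 0.30, limma adjusted p = 0.00806), with 4.995 and 4.97 in Ovol1/2 DKO, against 8.63 and 7.79 in Control. The zinc finger repressor Snai2 read at least 10.90 on every array and differed by 0.43 (SE 0.32). Its relative Snai1 differed by 0.14 (SE 0.24), and the helix-loop-helix factors Twist1, Tcf3 and Tcf4 by 0.18 (SE 0.21), 0.42 (SE 0.22) and 0.82 (SE 0.21). Klf8 differed by 0.27 (SE 0.27), and none of these 6 passed. Zeb1 in Control and Foxc2 in Ovol1/2 DKO were near background on both arrays, as was Zeb2 on 1 of the Control arrays, so the size of these differences moved with the settings. It was between 4.21 and 5.29 for Zeb1, 1.58 and 2.51 for Zeb2, and -4.08 and -2.12 for Foxc2. Lmo7, Zeb1 and Foxc2 passed under all 17 alternatives. The other 8 list genes that passed (Cdh10, Ctnnal1, Camsap3, Epb41l5, Cadm4, Pcsk6, Ptprj and Zeb2) did not pass once either array of Ovol1/2 DKO was left out (limma adjusted p between 0.0605 and 0.250).

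The second comparison set the arrays labelled Ovol1 KO against Control and, by the labels, asks what loss of Ovol1 alone does. No member passed, and neither did any of the 19938 genes (0% called by limma, with 153 genes at an unadjusted p under 0.05 and the smallest adjusted p at 0.999). These 153 genes are fewer than a threshold of 0.05 gives when no gene differs. The lack of calls therefore does not show that the groups are alike. Differences of the members ran from -0.41 for Cdh2 to 0.62 for Nectin4, with a median of -0.16 against -0.003 over all genes. Cdh1 differed by 0.01 (SE 0.24, 95% interval -0.56 to 0.57) and Cdh3 by -0.22 (SE 0.21, 95% interval -0.72 to 0.27). Nectin4 differed by 0.62 (SE 0.45, 95% interval -0.46 to 1.70), Nectin1 by 0.08 (SE 0.20) and Afdn by -0.20 (SE 0.20, 95% interval -0.69 to 0.28). The catenins Ctnna1, Ctnnb1 and Ctnnd1 differed by -0.15 (SE 0.19), -0.07 (SE 0.19) and -0.16 (SE 0.27), and Cdh11 by -0.20 (SE 0.22). Without the 2 arrays that lack Xist signal Nectin4 differed by -0.0487 and Cdh2 by 0.17, both with the sign turned. Both arrays labelled Ovol1 KO lay below both Control arrays for 3 members, Cdh11, Ctnna1 and Afdn, and above them for 0, where 19.1% of all genes did not overlap, 10.3% below and 8.83% above. Since the Ovol1 level did not bear out the label, the comparison does not show what loss of Ovol1 does to these genes.

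The third comparison set Ovol1/2 DKO against the arrays labelled Ovol1 KO, which by the labels alone isolates the added loss of Ovol2. Ovol1 itself differed by -4.18 (SE 0.34, limma adjusted p = 0.00478) there, and Ovol2 by -0.57 (SE 0.45, limma adjusted p = 0.665). The comparison therefore does not show what the added loss of Ovol2 does to these genes. It shares the Ovol1/2 DKO arrays with the first comparison, so its values are not an independent repeat. Nectin4 fell by 4.28 (SE 0.45, limma adjusted p = 0.00875), Cdh1 fell by 1.57 (SE 0.24, limma adjusted p = 0.0215) and Afdn fell by 1.29 (SE 0.20, limma adjusted p = 0.0247), where 3.15% of all genes passed, 1.91% lower and 1.24% higher. No member rose. Cdh2 was 2.09 higher (SE 0.64, 95% interval 0.57 to 3.60, limma adjusted p = 0.183) and Cdh3 0.76 higher (SE 0.21, 95% interval 0.27 to 1.25, limma adjusted p = 0.134), neither passing. The Cdh2 difference was between 1.17 and 3.002 without 1 array, and with the replicate number as a block its limma adjusted p was 0.0214. Ctnnd1 differed by -0.62 (SE 0.27, limma adjusted p = 0.365), Cdh11 by 0.16 (SE 0.22), Ctnnb1 by 0.13 (SE 0.19), Nectin1 by 0.15 (SE 0.20) and Ctnna1 by -0.04 (SE 0.19), none passing.

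Both Ovol1/2 DKO arrays lay below both arrays labelled Ovol1 KO for 4 members (Cdh1, Ctnnd1, Nectin4 and Afdn) and above them for 3 (Cdh3, Cdh2 and Ctnnb1), where 43.1% of all genes did not overlap, 24.6% above and the rest, 3689 genes, below. Leaving out any 1 of the 4 arrays compared ended the call of Cdh1 (limma adjusted p between 0.0526 and 0.147) and of Afdn (between 0.0718 and 0.211), and Nectin4 lost it without replicate 1 labelled Ovol1 KO (0.0613). With both arrays that lack Xist signal left out, the differences of Cdh1, Nectin4 and Afdn kept their direction.

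Among the adhesion lists, 3 genes passed in this comparison that had not passed against Control. The nectin Nectin2 fell by 1.32 (SE 0.21, limma adjusted p = 0.0244), the junction scaffold Tjp1 fell by 1.37 (SE 0.25, limma adjusted p = 0.0403) and the receptor phosphatase Ptpru rose by 1.87 (SE 0.29, limma adjusted p = 0.0245). Their differences from Control were -1.06, -1.22 and 1.58, with limma adjusted p values of 0.0659, 0.0773 and 0.0553. They were chosen after their values were seen, and each lost the call without any 1 of the 4 arrays compared. Of all the markers read, 3 rose and 2 fell here. The keratinocyte factor Trp63 rose by 1.097 (SE 0.21, limma adjusted p = 0.0465), Thy1 by 1.90 (SE 0.22, limma adjusted p = 0.0106) and the endothelial adhesion protein Pecam1 by 1.28 (SE 0.19, limma adjusted p = 0.0204), where the other 6 endothelial markers did not pass. Dsg3 fell by 1.198 (SE 0.21, limma adjusted p = 0.0351) and Krt8 fell by 1.72 (SE 0.28, limma adjusted p = 0.0269). None of these 5 calls held under every omission of 1 array, where the highest limma adjusted p was 0.284 for Trp63, 0.0782 for Thy1, 0.162 for Pecam1, 0.238 for Dsg3 and 0.173 for Krt8.

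**Figure D4:**
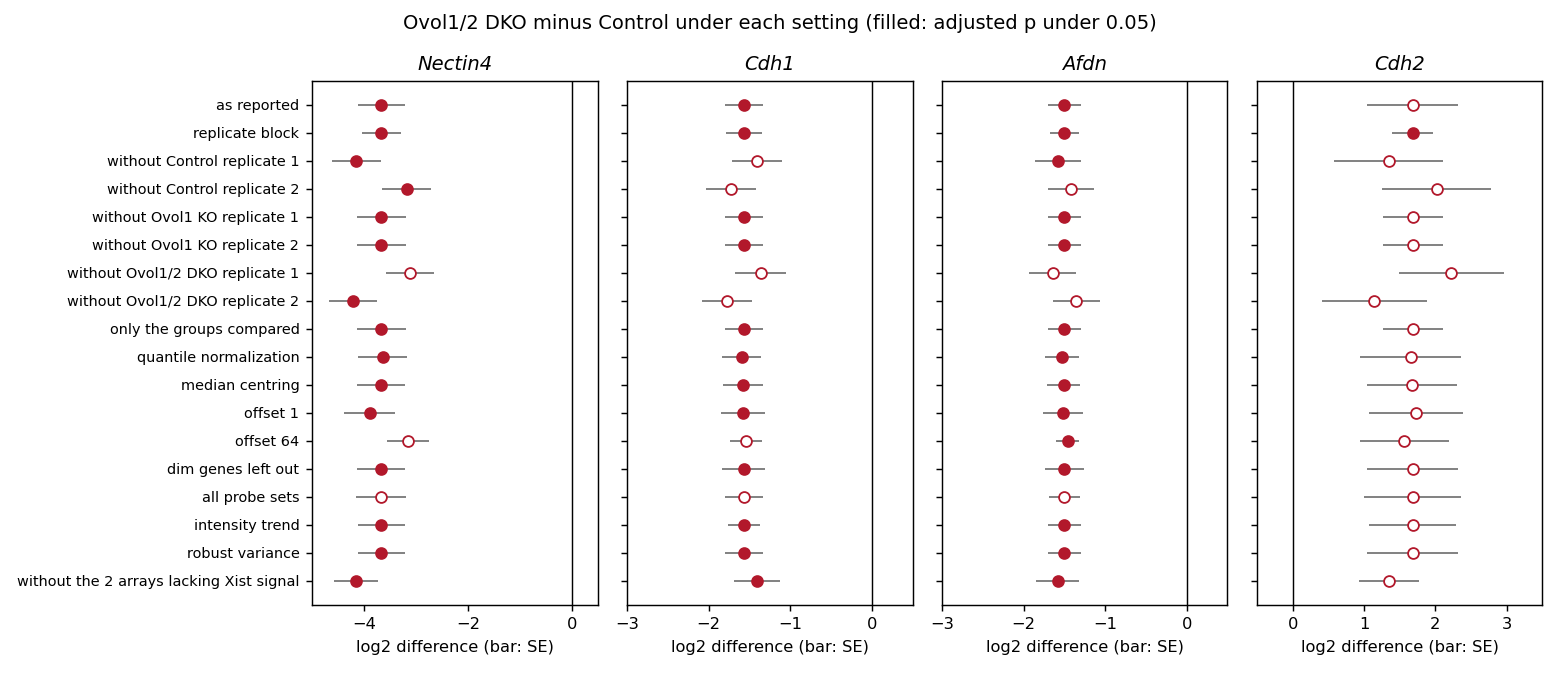
Log2 difference, Ovol1/2 DKO minus Control, of Nectin4, Cdh1, Afdn and Cdh2 (points, bars: SE) as reported and under each alternative setting; filled points have an adjusted p under 0.05. The difference ran from -4.21 to -3.11 for Nectin4, -1.77 to -1.36 for Cdh1, -1.64 to -1.36 for Afdn and 1.14 to 2.22 for Cdh2, and no setting changed a sign.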

How the data were processed

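The authors deposited 1 intensity per probe set and array, on a linear scale. The submitters' processing notes name Affymetrix Expression Console 1.1.1 and PLIER 2.0; how background and scaling were handled is not given in the sources used here. Of 35556 probe sets, 21789 had 1 gene symbol in the platform annotation, 1621 had several (not named) and 12146 had none. Entrez identifiers (91 without a match) gave current RefSeq GRCm38.p6 symbols, and the brightest probe set of a gene was kept. Levels are log2(intensity + 16). A linear model over all 6 arrays (limma 3.58.1, R 4.3.3) gave 3 comparisons (residual df 3, prior df 3.68), adjusted by Benjamini-Hochberg over 19938 genes, with a threshold of 0.05. An exact test of 2 arrays against 2 cannot go below 0.333. The fit was tested on simulated data. Members and lists were chosen with earlier results of these data known. Named were all members, up to 4 passing genes per list and direction (2 by smallest p where none passed), Ovol1, Ovol2, the Cdh1 repressors, markers and the 5 genes most like Cdh1; others are said to be chosen later. Some listed genes are not reported here. The alternatives changed the replicate block, the arrays used, the normalization (quantile or median), the offset (1 or 64), the features tested (dim genes left out, all probe sets) or the variance model (intensity trend, robust).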

Additional observations from a re-analysis of the deposited data

How the results depend on the processing

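The 10 members were refitted under 17 alternatives in each comparison. Several of these change the test but not the difference, so its direction could not turn under them. Examples are the replicate block, the variance models and the features tested. Of the 510 refitted differences, 468 kept their direction and their side of the threshold, 24 no longer passed, 2 newly passed and 16 changed sign, all 16 among differences that did not pass. The labels tie replicate numbers to no shared litter or day. Deviations from the group means of the replicate 1 arrays correlated across genes at 0.49 (Ovol1/2 DKO and Control), 0.19 (Ovol1/2 DKO and Ovol1 KO) and 0.26 (Ovol1 KO and Control). With the number as a replicate block, Cdh2 passed against Control (1.68, limma adjusted p = 0.0493) and against the arrays labelled Ovol1 KO (2.09, limma adjusted p = 0.0214), no other member changed its call, and 597 genes passed against Control, 0 in Ovol1 KO minus Control and 1022 in Ovol1/2 DKO minus Ovol1 KO.

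For Ovol1/2 DKO minus Control, 3 members and 403 genes passed. With an offset of 64 there were 1 and 155, and with all probe sets 0 and 91. The latter setting changes both the number of tests and the estimate of the spread. Leaving out 1 array gave 0 to 3 members and 99 to 455 genes. For Ovol1/2 DKO minus Ovol1 KO, 3 members and 628 genes passed, against 311 genes with an offset of 64, 1 member and 206 genes with all probe sets, and 0 to 3 members and 135 to 829 genes without 1 array. In Ovol1 KO minus Control 0 to 3 genes passed without 1 array. A group left with 1 array is assumed to vary like the others. With the 2 Xist-lacking arrays left out, an alternative added after seeing the data that leaves replicates in Ovol1/2 DKO alone, 1393 genes passed for Ovol1/2 DKO minus Control, 20 for Ovol1 KO minus Control and 1502 for Ovol1/2 DKO minus Ovol1 KO. The cause was not tested.

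In Ovol1 KO minus Control the sign turned for Cdh1 with median centring (-0.0277). It also turned with the 2 Xist-lacking arrays left out for Cdh3 (0.00549), Cdh2 (0.17), Ctnnb1 (0.0109), Ctnnd1 (0.0345), Nectin1 (-0.00557) and Nectin4 (-0.0487). Without 1 array that comparison ran from -0.16 to 0.17 for Cdh1, -1.32 to 0.51 for Cdh2, -0.40 to 0.0790 for Ctnnd1 and -0.0211 to 0.18 for Nectin1. Ovol1/2 DKO minus Control ran from -0.24 to 0.15 for Cdh11, -0.0162 to 0.13 for Ctnnb1, -0.58 to 0.57 for Dcn, -0.0583 to 0.60 for Klf8, -0.10 to 0.39 for Snai1 and -0.0378 to 0.11 for Klhdc9. With the 2 Xist-lacking arrays left out, Snai1 was -0.10 and Klhdc9 -0.0378. Ovol1/2 DKO minus Ovol1 KO ran from -0.0397 to 0.35 for Cdh11 and -0.13 to 0.0439 for Ctnna1.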

Other observations

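The 5 genes whose levels ran most like Cdh1 over the 6 arrays, by Pearson's correlation among genes at or above the median level, were Ocln and Marveld2, which seal tight junctions, Upk3bl, a relative of the uroplakins, Slc1a1, a glutamate transporter, and Spint1, an inhibitor of membrane serine proteases. Their r ran from 0.991 to 0.996 over 6 arrays. The Ovol1/2 DKO arrays stand apart from the other 4, so the likeness is a description of that split. Spint1, the brightest of the 5 in Ovol1/2 DKO, read 8.71 and 9.19 there, 11.73 and 11.33 under the Ovol1 KO label and 11.35 and 11.24 in Control. Ocln read 5.63 and 6.54 in Ovol1/2 DKO, 10.09 and 9.92 under the Ovol1 KO label and 10.13 and 9.86 in Control.

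Cdh3 and Cdh1 are neighbouring protein-coding genes in GRCm38.p6, and they differed by 0.54 (SE 0.21, not passing) and -1.57 (SE 0.24, passing) in Ovol1/2 DKO minus Control. Tango6, on the other side of Cdh1, differed by 0.81 (SE 0.45, limma adjusted p = 0.708). Beside Nectin1, which differed by 0.23, lie Thy1 and Trim29. Thy1 rose by 1.67 (SE 0.22, limma adjusted p = 0.0187), and Trim29 differed by -0.97 (SE 0.28, limma adjusted p = 0.216) without passing. Afdn differed by -1.499. Of its neighbours, Tcte2 differed by -1.58 (SE 0.33, limma adjusted p = 0.0786) and Gm7168 by 0.11 (SE 0.21), neither passing. Tcte2 passed under 4 of 17 alternatives (limma adjusted p between 0.00774 and 0.383). The neighbours of Nectin4, Klhdc9 and Arhgap30, differed by 0.03 (SE 0.21) and -0.43 (SE 0.19), neither passing. These neighbours were chosen after the data were seen.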
